A study of Mus musculus with 2 samples.

Results

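Methylation was compared at the 5 mouse genes that encode the oestrogen receptors and the oestrogen-related receptors, namely Esr1, Esr2, Esrra, Esrrb and Esrrg. Members were all cytosine positions covered in both libraries that lie in the body of one of these genes or within 5 kb upstream of it, on the mouse genome build NCBIM37 (mm9). There were 499 such positions among 826937 in all, 62 in Esr1, 33 in Esr2, 66 in Esrra, 110 in Esrrb and 228 in Esrrg. These positions made up 446 CpGs, and both strands were covered at 53 of them.

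The study measured methylation by RRBS, reduced representation bisulfite sequencing, in which DNA is cut with MspI at CCGG and bisulfite turns unmethylated cytosines into uracil, so that only methylated cytosines are later read as cytosine. One library came from wildtype (wt) mouse embryonic fibroblasts (MEFs) and 1 from βerko MEFs, whose genotype is ESR2 -/-, which means that both copies of the gene for oestrogen receptor β are disrupted. Both cell types are labelled as strain C57BL/6, were grown in the same medium without a treatment, and gave DNA of 3 batches that was pooled before the library was made. No source used here gives the sex or stage of the embryos, the way the allele was disrupted, or whether the batches were separate animals or cultures. With 1 library per genotype there are no replicates, so every difference below is one between these 2 libraries, and tests cover counting error only. RRBS does not tell 5-methylcytosine from 5-hydroxymethylcytosine.

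Oestrogen receptor α (Esr1) and β (Esr2) are nuclear receptors that bind oestradiol and then act on genes through oestrogen response elements, pairs of inverted half-sites in DNA. The oestrogen-related receptors α (Esrra), β (Esrrb) and γ (Esrrg) are close relatives in sequence that do not bind natural oestrogens and are therefore called orphan receptors. Esrra and Esrrg drive genes of mitochondrial energy metabolism, and Esrrb belongs to the transcription factor network of pluripotent stem cells. Methylation of CpGs around a transcription start often goes with a silent gene, whereas methylation within gene bodies is common in active genes.

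Part of the differences lay in short stretches, and others were spread along the genes. Esrrg lost methylation in 1 intronic block and had more methylation after its first start. In Esr1, methylation was lower at the first coding exon, and Esr2, the targeted gene, was less methylated in its first exon and first intron. Esrrb was more methylated along most of its body, and the start of Esrra was unmethylated in both libraries. Of the 499 positions, 109 were at least 20 percentage points lower in βerko MEFs and 64 at least 20 points higher, which is 21.8 % and 12.8 %. Among all covered positions 10.4 % were lower and 6.81 % higher by as much. Members were also more methylated to begin with, averaging 59.8 % in wt against 40.7 % over all positions. Among positions at 50 % methylation or more in wt, 99 of 322 members were lower by at least 20 points, against 18.7 % of all such positions. Of those below 50 % in wt, 44 of 177 members were higher by at least 20 points, against 6.90 % of all such positions. The split at 50 % does not make members and all positions alike. In wt, 124 of the 499 members lay between 20 and 80 %, and 142556 of all 826937 positions did. Neighbouring positions share reads, so these counts are descriptions and were not tested.

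**Figure D1:**
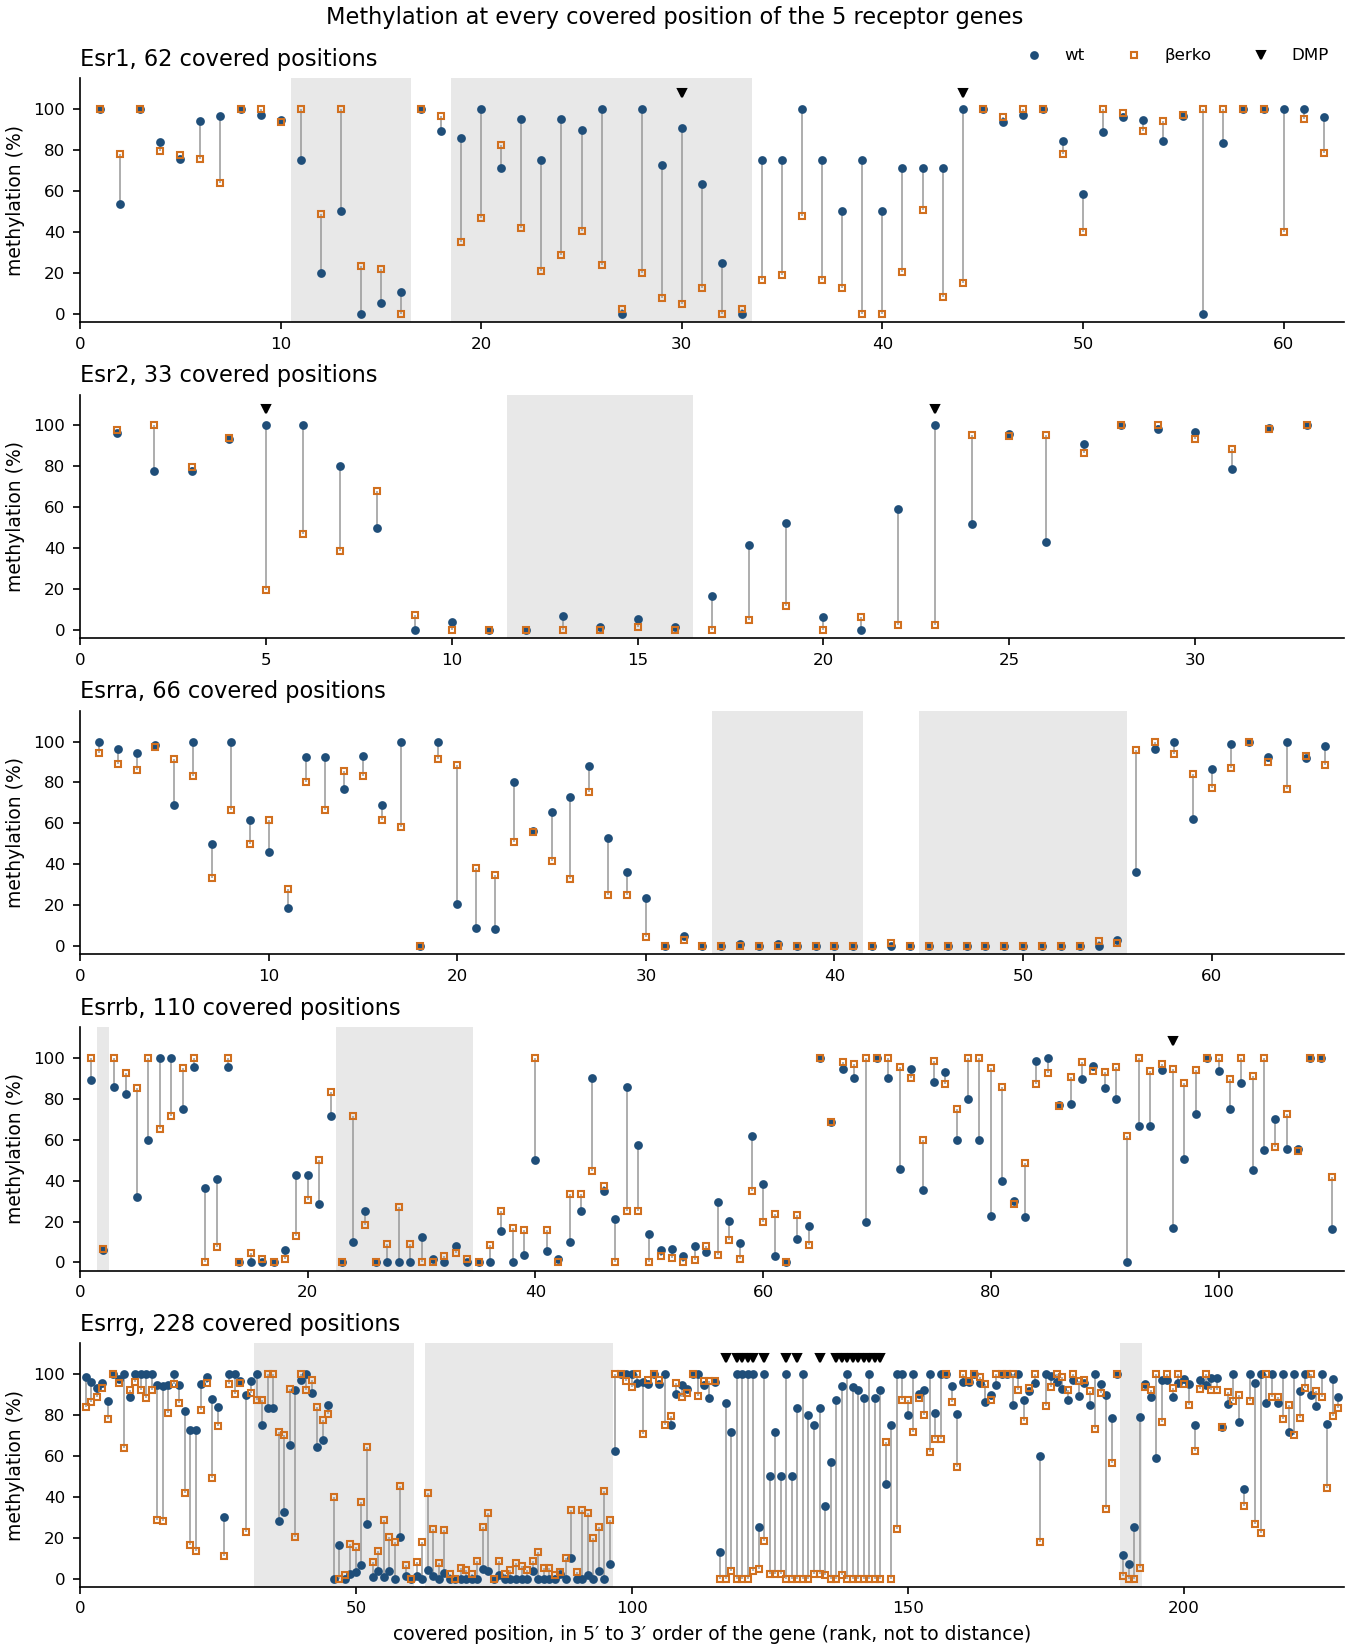
Methylation in percent (y axis) at each covered position of the 5 genes, in 5′ to 3′ order (x axis, rank), with wt as filled circles, βerko as open squares, a line joining the 2 values, promoter windows in grey and DMPs as triangles. Long lines form runs in the middle of Esr1 and Esrrg, whereas the promoter windows of Esrra stay near 0 in both libraries.

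Stretches that hold some of these differences, and the Esrra promoter as a contrast, have the following sequences on the strand of the gene. Capitals mark the CpGs with a hypomethylated differentially methylated position (DMP) in the first sequence, the CpG of the hypermethylated DMP in the Esrrb sequence, and the CpGs covered in both libraries in all others.
Esrrg intron block, chr1:189475791-189475922, plus strand: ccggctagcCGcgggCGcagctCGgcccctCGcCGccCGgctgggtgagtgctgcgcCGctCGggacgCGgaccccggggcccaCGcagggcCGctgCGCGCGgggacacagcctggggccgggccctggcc
Esrrg after the first start, chr1:189433416-189433570, plus strand: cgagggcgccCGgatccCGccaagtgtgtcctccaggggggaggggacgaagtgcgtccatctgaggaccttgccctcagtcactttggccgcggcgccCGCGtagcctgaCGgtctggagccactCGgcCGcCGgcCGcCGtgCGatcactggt
Esr1 end of the first coding exon and start of the next intron, chr10:5633640-5633753, minus strand: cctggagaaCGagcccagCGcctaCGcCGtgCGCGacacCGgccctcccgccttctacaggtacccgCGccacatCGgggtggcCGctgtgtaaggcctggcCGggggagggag
Esr2 first intron, chr12:77277795-77277894, minus strand: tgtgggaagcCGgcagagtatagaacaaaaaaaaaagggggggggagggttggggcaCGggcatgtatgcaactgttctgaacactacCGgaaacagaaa
Esr2 upstream stretch, chr12:77279533-77279681, minus strand: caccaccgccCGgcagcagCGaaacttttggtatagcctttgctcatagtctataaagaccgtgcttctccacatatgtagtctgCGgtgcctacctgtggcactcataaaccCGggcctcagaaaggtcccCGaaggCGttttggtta
Esrrb intron, chr12:87848884-87848965, plus strand: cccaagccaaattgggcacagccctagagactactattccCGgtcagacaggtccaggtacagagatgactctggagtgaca
Esrra promoter, chr19:6996309-6996443, minus strand: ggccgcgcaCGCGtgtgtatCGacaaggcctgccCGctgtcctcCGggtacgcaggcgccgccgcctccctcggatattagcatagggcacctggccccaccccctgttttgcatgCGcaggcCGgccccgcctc

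The Esrrg block holds 20 CpGs in 132 bp, the Esr1 stretch 13 in 114 bp and the Esrra promoter 15 in 135 bp. CpGs were sparser in the stretches of Esr2, with 3 in 100 bp in the first intron, and the Esrrb stretch has 1 in 82 bp.

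A position counted as a DMP when each library had more than 4 reads there and methylation was under 20 % in the one and over 80 % in the other. Reads are given in the deposited tables only for DMPs, so that the depth of all other positions is unknown. The 5 genes held 22 hypomethylated DMPs, 18 in Esrrg, 2 in Esr1 and 2 in Esr2, and 1 hypermethylated DMP, in Esrrb. With at least 10 reads in both libraries 8 of the hypomethylated ones were left, and limits of 10 and 90 % gave 13 hypomethylated and 0 hypermethylated DMPs. Over all positions 0.700 % were hypomethylated and 0.237 % hypermethylated DMPs. Methylated and unmethylated reads were compared by Fisher's exact test (two-sided, Benjamini-Hochberg adjusted over all 826937 positions). All 22 and the 1 passed at 0.05, where 0.642 % of all positions were hypomethylated DMPs that passed and 0.212 % hypermethylated ones. Since the criterion already asks for a large difference, passing says little beyond it. Among 13982 genes with at least 10 covered positions, 12.5 % held a hypomethylated DMP that passed and 5.21 % a hypermethylated one. Only 24 of these genes, or 0.172 %, held at least as many hypomethylated ones as Esrrg, which has 228 covered positions where the median gene has 40.

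Esrrg (ENSMUSG00000026610.7, chromosome 1, 189432670 to 190038764, plus strand) is the longest member, at 606 kb. Its 18 hypomethylated DMPs all lay in a block of 30 covered positions from 189475801 to 189475912, 43.2 kb after the first start and inside an intron of the GENCODE transcripts. Here methylation averaged 80.01 % in wt against 3.74 % in βerko MEFs. The value was lower in βerko at 29 of the 30 positions, and the exception was the last one, at 189475912, with 46.2 % in wt and 66.7 % in βerko. Both strands showed the fall, from 69.8 to 1.29 % on average at 12 plus-strand positions and from 86.8 to 5.38 % at 18 minus-strand positions.

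At the DMPs of the block, wt methylation ranged from 83.3 to 100 % and βerko methylation from 0 to 18.5 %, with 14 of the 18 at 0. Depth was low in wt, from 6 to 17 reads with a median of 10, and ranged from 6 to 62 reads with a median of 27 in βerko. At the position 189475888, for example, 15 of 16 reads were methylated in wt (93.8 %, exact 95 % confidence interval 69.8 to 99.8 %) and 0 of 62 in βerko (upper bound 5.78 %), with an adjusted p of 1.33e-12 in Fisher's exact test. The weakest of the 18 had 12 of 13 methylated reads in wt and 0 of 6 in βerko, with an adjusted p of 0.0307 in the same exact test. A further position of the block, 189475857, had only 4 wt reads and was not counted. Reads of one fragment cover many of these CpGs, so the 18 are not 18 separate observations. The block is rich in CpGs, with 82.5 % G and C and an observed to expected CpG ratio of 0.916. GENCODE has no transcript start there, while the deposited annotation, which also uses cDNAs, marks the DMPs of the block as promoter, all 18 of them.

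**Figure D2:**
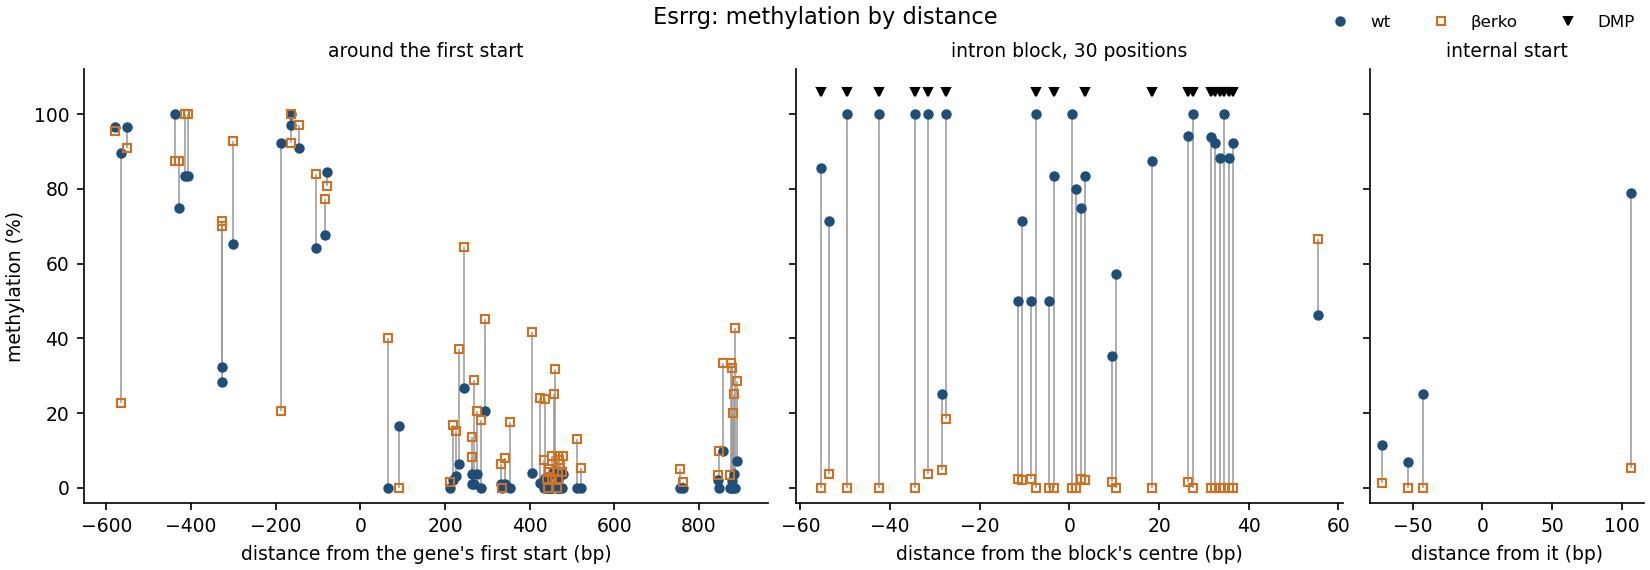
Methylation in percent (y axis) at positions of Esrrg by distance in bp (x axis) from the first start, from the centre of the intron block, and from an internal start, with wt as filled circles, βerko as open squares and DMPs as triangles. βerko squares lie mostly above the wt circles after the first start, and mostly near 0 in the block and at the internal start.

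Segments, here runs of at least 3 covered positions with gaps of at most 100 bp, put the block in context. Among 4034 segments with at least 30 positions, 4, the block included, had a mean difference as low as its -76.3 points. Segments with 10 or more positions and a wt mean of 70 % or more were lower by at least 50 points in 6.90 % of cases, and of the 4 of this kind in the receptor genes the Esrrg block and the Esr1 stretch were. Outside the block, the intronic positions of Esrrg were mostly highly methylated in both libraries. The 10 positions just before it, from 189475047 to 189475276, had means of 84.4 % in wt and 83.3 % in βerko. After it, the positions 189476049 and 189476217 had 75.0 and 100 % in wt and 0 and 24.4 % in βerko.

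The first 1000 bp of Esrrg, which also hold the starts of Esrrg-003 at 189432908 and Esrrg-005 at 189433575, went the other way. Within the first 1000 bp of the gene, the 2 segments between 189432881 and 189433560 hold 49 positions, where methylation averaged 2.39 % in wt but 15.9 % in βerko MEFs. Methylation was higher in βerko at 46 of them, equal at 3 and lower at 0, and 16 were higher by at least 20 points. The first 2 covered positions of the gene belong to no segment and went opposite ways, with 0 % in wt and 40 % in βerko at 189432735, and 16.7 and 0 % at 189432762. Over all 51 positions of the 1000 bp the means were 2.63 and 16.0 %, with 47 higher and 1 lower. The largest values in βerko were 64.4 % at 189432914, where wt had 26.7 %, and 45.2 % at 189432965, where wt had 20.6 %. None of the 51 met the criterion for DMPs, so no reads are known and no test was made. Segments of at least 10 positions below 5 % in wt were higher by at least 10 points in βerko in 0.545 % of 10464 cases. Of 4 such segments in the receptor genes, both of Esrrg were, with 12.1 and 17.8 points, while those of Esrra and Esrrb were not.

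The 5 kb before the first start of Esrrg were methylated in both libraries, with means of 86.8 % in wt and 75.7 % in βerko at 45 positions, 33 of them lower in βerko. At 4 positions from 189429637 to 189429764, the mean was 80.5 % in wt and 38.5 % in βerko. Nearer the first start, 7 positions from 189432231 to 189432370 averaged 66.8 % in wt and 87.0 % in βerko, and 6 of them were higher. A pair of internal starts, at 189821706 and 189821747, belongs to the transcripts Esrrg-001 and Esrrg-002. There, 3 positions averaged 14.4 % in wt and 0.44 % in βerko, and the next, at 189821812, had 79.0 % in wt and 5.26 % in βerko. Thus the starts of Esrrg differed in direction, higher in βerko on average over the first 1000 bp and lower at the internal pair, without a test.

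Esr1 (ENSMUSG00000019768.9, chromosome 10, 5340927 to 5734948, minus strand), which encodes oestrogen receptor α, had the largest share of positions with lower values. Of its 62 positions, 25 were at least 20 points lower and 6 at least 20 points higher, or 40.3 % and 9.68 %. Most of the lower ones lay at the first coding exon, which is exon 3 of 10 in the transcript Esr1-001 (5633694 to 5634228). Across 26 positions from 5633650 to 5634384, covering this exon and its flanks, methylation averaged 72.3 % in wt but 22.2 % in βerko MEFs, and 23 were lower by at least 20 points. The 11 positions of the sequence printed above averaged 74.0 % (50 to 100 %) in wt and 18.9 % (0 to 50.9 %) in βerko, and all were lower in βerko. Among 15493 segments of at least 11 positions, 0.781 % had a mean difference as low as their -55.2 points. In wt these 11 positions took only the values 50, 71.4, 75 and 100 %. Depth is known for 1 of them, 5633650, with 7 wt reads.

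Both hypomethylated DMPs of Esr1 lay in this stretch. At 5633650, in the intron after the exon, 7 of 7 reads were methylated in wt (100 %, exact 95 % confidence interval 59.0 to 100 %) and 9 of 59 in βerko (15.3 %, 7.22 to 27.0 %), with an adjusted p of 0.00194 in Fisher's exact test. At 5633911, in the coding part of the exon, 10 of 11 reads were methylated in wt (90.9 %, 58.7 to 99.8 %) and 2 of 40 in βerko (5.00 %, 0.611 to 16.9 %), with an adjusted p of 8.97e-06 in the same exact test. The 5 positions in the untranslated part of the exon, 5634171 to 5634200, had means of 91.0 % in wt and 31.3 % in βerko (21.1 to 42.1 %), which is above the limit for DMPs.

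Upstream of the exon, values turned. The positions 5635325 and 5635330 were nearly fully methylated in both libraries, with 89.1 and 100 % in wt and 96.4 and 100 % in βerko. Just before the start at 5636386, which the coding transcripts Esr1-004 and Esr1-007 share, 6 positions averaged 26.8 % in wt and 49.0 % in βerko. Of these 6, 5 were higher in βerko. The strands were unlike in level, with means of 11.9 and 23.5 % at 3 plus-strand positions and 41.7 and 74.5 % at 3 minus-strand ones. The CpG at 5636511 had 19.8 % on the plus strand and 75.0 % on the minus strand in wt. Depth is unknown at all 6 positions. The group of starts that lies at the 5′ end of the gene was not covered, with the nearest covered position 9334 bp away. What is counted as promoter of Esr1 here are therefore windows at 2 internal starts, 5636386 and that of the processed transcript Esr1-010 at 5633890, and the data say nothing of the main promoter. One more position, 5360202, had 0 of 4 reads methylated in wt and 5 of 5 in βerko, below the minimum of reads, and was not counted.

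**Figure D3:**
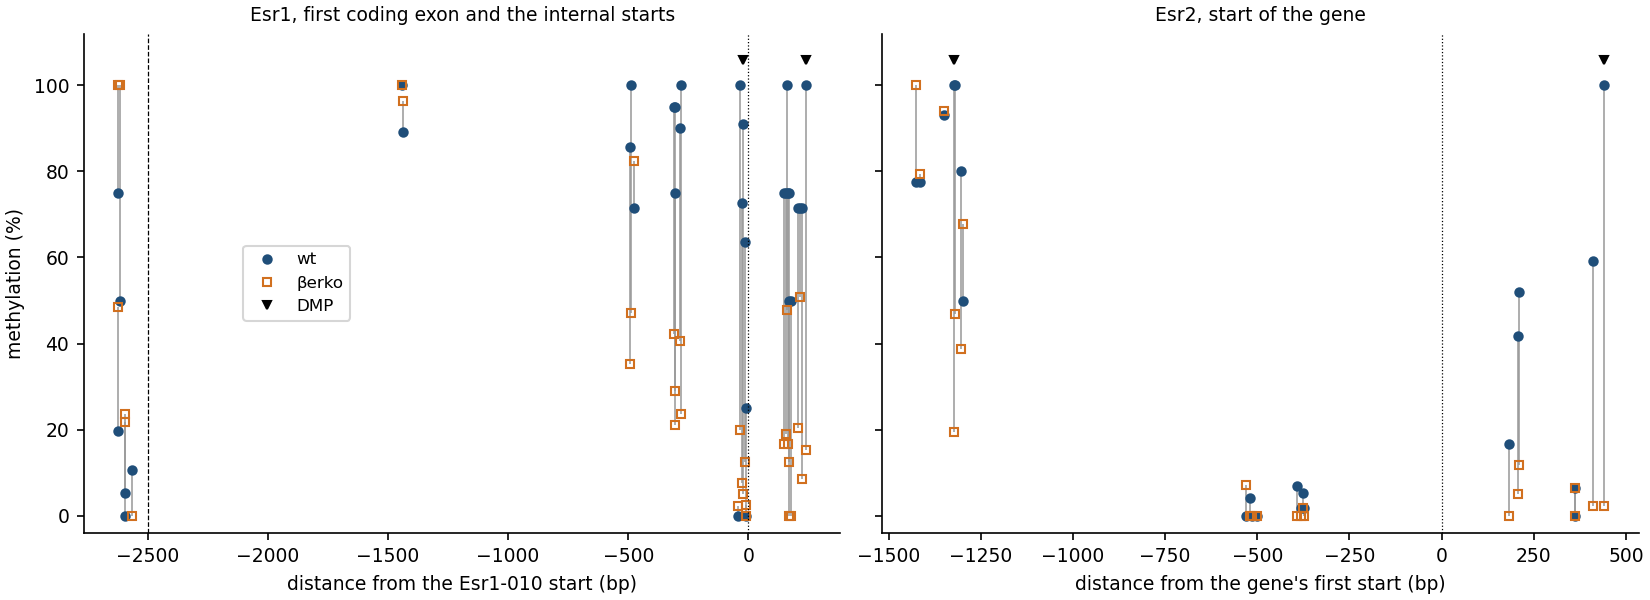
Methylation in percent (y axis) at positions of Esr1 by distance from the Esr1-010 start (dotted line, with the Esr1-004 start dashed) and of Esr2 by distance from its first start (dotted line), in bp, with wt as filled circles, βerko as open squares and DMPs as triangles. In Esr1 the squares lie mostly below the circles around the dotted line and mostly above them at the dashed one. In Esr2 the 8 positions between -374 and -531 bp are near 0 in both libraries.

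Esr2 (ENSMUSG00000021055.6, chromosome 12, 77221406 to 77278246, minus strand), which encodes oestrogen receptor β, is the disrupted gene. These values are no check of the disruption itself. In the first exon and the first intron, 7 positions averaged 39.4 % in wt and 3.97 % in βerko, and 6 of them were lower in βerko. Those of the first exon, which is untranslated, had 52.1, 41.7 and 16.7 % in wt and 11.7, 5.00 and 0 % in βerko. In the intron, the hypomethylated DMP at 77277805 had 27 of 27 methylated reads in wt (exact 95 % confidence interval 87.2 to 100 %) and 1 of 43 in βerko (0.0589 to 12.3 %), with an adjusted p of 8.29e-16 in Fisher's exact test. Its neighbour at 77277836 had 59.3 % in wt and 2.33 % in βerko, while the CpG at 77277883, covered on both strands, was below 7 % in both libraries.

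Before the start of Esr2, the 8 positions between 77278620 and 77278777 were unmethylated, with at most 6.78 % in wt and 7.14 % in βerko. Further upstream, 7 positions from 77279543 to 77279671 averaged 82.6 % in wt and 63.7 % in βerko, but did not move together, since 3 were lower and 4 higher in βerko. The CpG with the second DMP was covered on both strands. Its minus strand, at 77279568, had 10 of 10 methylated reads in wt (69.2 to 100 %) and 6 of 31 in βerko (7.45 to 37.5 %), with an adjusted p of 9.72e-04 in Fisher's exact test. On the plus strand, at 77279567, methylation was 100 % in wt and 47.0 % in βerko. The rest of the body was methylated in both libraries, with means of 85.3 % in wt and 95.2 % in βerko at 10 positions, of which 77233177 and 77234645 were higher in βerko, from 42.9 to 95.2 % and from 51.6 to 95.2 %. The mean over the whole gene was thus 55.3 % in wt and 46.4 % in βerko, and its sign depended on how positions were weighted. With each 100 bp bin weighted once, βerko was 0.47 points higher over the gene, and the median of the body was 9.45 points higher in βerko. In the 5 Mb on either side of Esr2, without the gene itself, 10.5 % of 4312 positions were at least 20 points lower and 6.35 % at least 20 points higher, close to the shares over all positions. DMPs were more frequent there, with 76 hypomethylated ones, or 1.76 % of the positions, where chromosome 12 as a whole had 0.996 % and all positions 0.700 %, and 71 of the 76 passed Fisher's exact test. The 12 hypermethylated ones were 0.278 %. These shares were not tested against each other.

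Esrrb (ENSMUSG00000021255.10, chromosome 12, 87702067 to 87862578, plus strand) lies 10.4 Mb from Esr2 and was the only member with a higher mean in βerko, 52.4 % against 44.9 % in wt over 110 positions. Of these, 26 were at least 20 points higher and 11 at least 20 points lower, or 23.6 % and 10.0 %. Near a second start, at 87762594 and 87762833, methylation was low on average in both libraries. At 40 positions from 87762743 to 87764574, means were 17.0 % in wt and 14.8 % in βerko. At the other 70 positions the mean was 60.8 % in wt and 73.8 % in βerko, with 45 higher, 17 lower and 8 equal. Its 3 segments with a mean at least 20 points higher lay in introns at 87718267, 87805184 and 87842719, with 66.7, 66.7 and 53.3 % in wt and 92.6, 91.7 and 87.7 % in βerko. All 10 positions of these 3 segments were higher in βerko, but their depth is unknown. In the segment at 87805184, wt took only the values 60 and 80 %.

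The hypermethylated DMP of Esrrb lay in an intron at 87848924. It had 2 of 12 methylated reads in wt (16.7 %, exact 95 % confidence interval 2.09 to 48.4 %) and 17 of 18 in βerko (94.4 %, 72.7 to 99.9 %), with an adjusted p of 0.00286 in Fisher's exact test. The opposite strand of this CpG, at 87848925, had 50.5 % in wt and 87.5 % in βerko, the same direction with a smaller difference. At the first start of Esrrb a single position was covered, 8 bp before it, with 6.25 % in wt and 6.67 % in βerko. A position 309 bp before the second start, 87762285, had 10.0 % in wt and 71.4 % in βerko, whereas its neighbour at 87762264 was at 0 in both.

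Esrra (ENSMUSG00000024955.7, chromosome 19, 6985467 to 6996303, minus strand) is the shortest member, at 10.8 kb, and the one with the smallest differences. Its 22 positions from 6995938 to 6996433, which cover the start, the first exon and the beginning of the first intron, had means of 0.231 % in wt and 0.271 % in βerko, and none was above 3.16 % in either library. This window includes the promoter printed above, whose 7 covered CpGs reached at most 0.96 % in wt and were at 0 in βerko. In the body away from the start all 11 positions but 6991237 were above 60 % in both libraries, and that one had 36.4 % in wt and 96.0 % in βerko. Upstream, 9 positions from 6999889 to 7000095 averaged 53.8 % in wt and 38.5 % in βerko, 8 of them lower, while 7000255 had 20.6 % in wt and 88.5 % in βerko. Further upstream, 11 positions from 7000479 to 7000546 averaged 68.2 and 60.7 % and 8 from 7000669 to 7000830 averaged 88.5 and 80.2 %, and both runs lie within the neighbouring gene Kcnk4. Esrra had no DMP.

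Parts of the genes were compared across the members. Promoters were taken as 500 bp before to 100 bp after each annotated start. Means of wt and βerko were 58.3 and 31.7 % for Esr1 (21 positions), 3.08 and 0.334 % for Esr2 (5), 0.267 and 0.235 % for Esrra (19), 4.89 and 11.6 % for Esrrb (13), and 19.7 and 29.3 % for Esrrg (67). Among 8200 promoters with at least 10 covered positions, 3.74 % were lower by at least 20 points and 0.207 % higher. Of the 4 members with as many, Esr1 was lower by so much and none was higher. The 2 internal windows of Esr1 went opposite ways, and its main promoter was not covered. Means of wt and βerko were 71.0 and 24.7 % at Esr1-010 (15 positions), and 26.8 and 49.0 % at Esr1-004 (6). In the bodies outside the promoter windows, the means were 84.7 and 70.2 % for Esr1, 66.4 and 57.6 % for Esr2, 68.7 and 70.6 % for Esrra, 49.9 and 57.4 % for Esrrb and 86.8 and 63.9 % for Esrrg. Esr1 and Esrrg were thus lower in βerko in the body, Esrrb higher, and the means of Esrra were within 2 points of each other. Of 52 segments in the 5 genes, 10 were at least 20 points lower and 5 at least 20 points higher, against 7.89 % and 4.31 % of all 77072 segments. Without the block, the mean difference in the Esrrg body was -6.96 points in place of -23.0 points, so that most of it rested on that block.

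**Figure D4:**
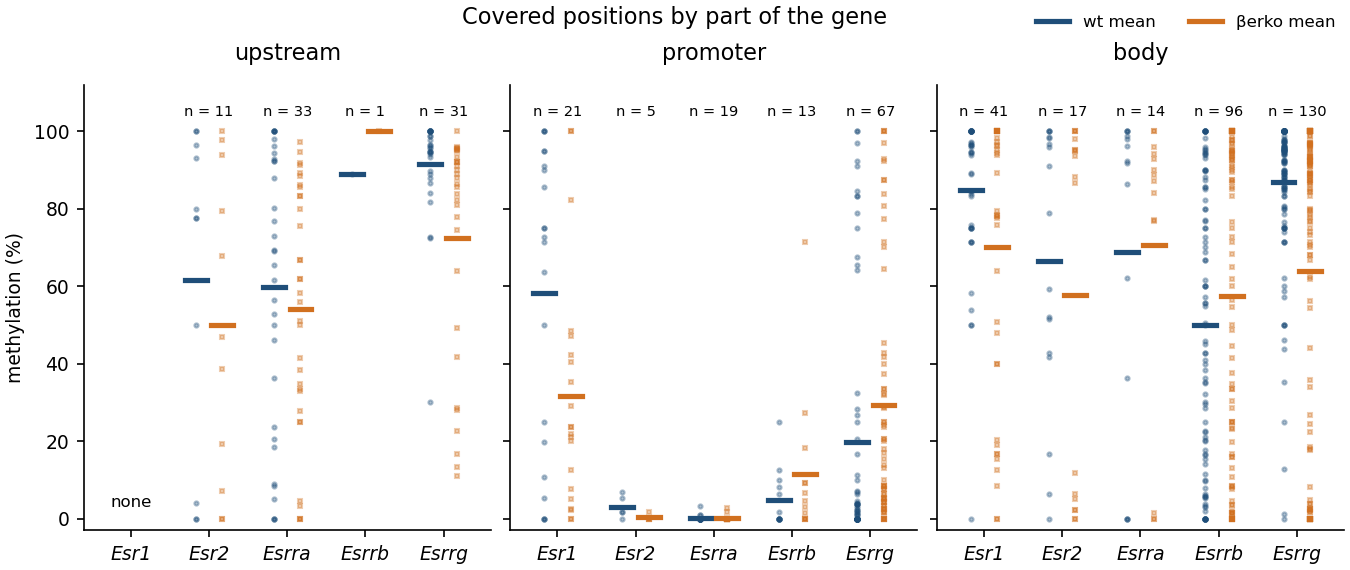
Methylation in percent (y axis) at each covered position upstream, in the promoter windows and in the body of the 5 genes (x axis), with bars at the means, wt in blue and βerko in orange, and the number of positions above. Promoter values of Esr2 and Esrra are near 0 in both libraries, and the body of Esrrg has a separate set of βerko values near 0.

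**Figure D5:**
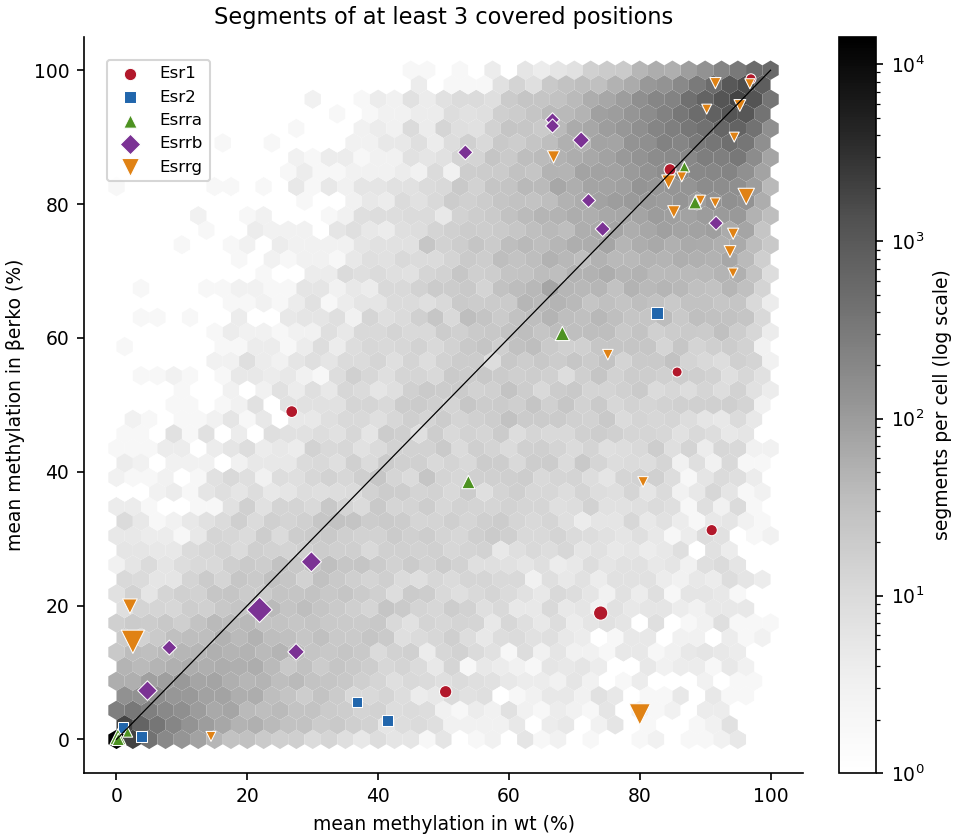
Mean methylation in percent of segments in wt (x axis) and in βerko MEFs (y axis), with all 77072 segments as grey cells (log scale), the 52 segments of the receptor genes as symbols that grow with the number of positions, and the line of equal values. The Esrrg block lies at 80.01 and 3.74 %, and 3 segments of Esrrb lie near 90 % in βerko at 53.3 to 66.7 % in wt.

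On CpGs covered on both strands, the 2 strands gave the same direction of difference at 40 of 53 members and the opposite at 6. Esrrg held 28 of the 53, with the same direction at 24 and the opposite at 1. Over all 70667 CpGs covered on both strands, the direction was the same at 44602 and opposite at 8549. The remaining CpGs had no difference on at least 1 strand. Motifs were searched on both strands within 100 bp of the covered CpGs. The half-site GGTCA was found at 33.6 % of the 446 CpGs and at 28.6 % of all covered CpGs. The extended half-site of oestrogen-related receptors, TCAAGGTCA, which contains the half-site, was found at 2 CpGs of Esrrb, or 0.448 %, against 0.250 % of all. No CpG of the members had an inverted pair of half-sites with 3 bases between them within this distance, against 0.0206 % of all covered CpGs. Of the sequences printed above, only that of Esrrb has a GGTCA, and it begins at the second base of the DMP's CpG.

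Of the closest relatives among the nuclear receptors, those for glucocorticoid (Nr3c1), mineralocorticoid (Nr3c2) and progesterone (Pgr) were compared. The promoters of Nr3c1 had 0.115 % in wt and 0.323 % in βerko over 91 positions. Pgr, a classical oestrogen target, had an intermediate mean, with 23.6 % in wt and 23.4 % in βerko over 66 positions (0 to 62.1 % and 0 to 95.2 %), and Nr3c2 had 22.2 and 22.7 % over 113. None of the 3 held a DMP.

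Among the other nuclear receptors, 38 of 44 had at least 10 covered positions, of which 7 held a hypomethylated and 3 a hypermethylated DMP that passed the test, shares that can be read against 12.5 % and 5.21 % of genes. Among these were Nr2f1 with 5 hypomethylated ones, Nr2f2 with 4, Rora with 3, and Nr2e1 with 2. Of the receptor coactivators 0 of 11 genes held such a DMP, and of the genes driven by oestrogen-related receptors 0 of 9. The positions of these genes could still differ without meeting the criterion. In the list of cooperating transcription factors Gata3 held 14 hypomethylated and 1 hypermethylated one, and its mean was 77.4 % in wt and 51.3 % in βerko over 193 positions. The oestrogen-responsive genes with DMPs were Wnt4 with 5 hypomethylated and 1 hypermethylated, Bcl2 and Cxcl12 with 2 hypomethylated each, and Ltf, which encodes lactoferrin, with 1 hypermethylated, of 12 tested. In the list for oestrogen synthesis and inactivation, Hsd17b1, whose product turns oestrone into oestradiol, held 1 hypomethylated DMP, of 5 tested. The median change of mean methylation was between -1.23 and 1.24 points in each of these 6 lists, and -0.476 points over all 13982 genes.

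Promoters most like those of Esr1 in the pair of wt and βerko means, 58.3 and 31.7 %, were those of Cdh4 with 59.1 and 32.6 %, Lin7b with 57.7 and 30.2 %, and Dleu7 with 60.9 and 32.5 %, at distances of 1.24, 1.57 and 2.67 points among 8200 genes. This likeness rests on 2 libraries, and the Esr1 means pool 2 internal starts that went opposite ways. Marker genes were checked at their promoters, since expression was not analysed here. Of 6 fibroblast marker promoters with covered positions, those of Col1a1, Fn1, Pdgfrb and Twist1 were at most at 0.6 % in both libraries, whereas Vim had 64.2 and 58.5 % and Col1a2 93.6 and 48.3 %. Those of Epcam, Pecam1 and Pou5f1, markers of other cell types, were between 65.7 and 94.6 %, and Cdh1 had 23.7 and 13.5 %. Some of these rest on few positions, with 1 for Pdgfrb, 2 each for Epcam and Pecam1, 3 for Col1a1 and 5 each for Col1a2 and Pou5f1. The promoters of Col3a1, Thy1, Pdgfra, Prrx1, Krt8, Ptprc, Cdh5 and Nanog had no covered position. What part the marker genes have in the results was not tested.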

How the data were processed

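The authors made 1 RRBS library per genotype from pooled DNA of 3 batches, with fragments of 160 to 340 bp, 2 rounds of bisulfite conversion and 19 PCR cycles. The sequencer was a Genome Analyser IIx, and mapping was done with the Genomatix Mining Station, whose version is not given in the sources used here. CASAVA 1.4 and mm9 are named in the submitters' processing notes. The authors deposited a percent methylation for every cytosine that both libraries covered, and the counts of reads at DMPs, with an annotation from RegionMiner. A percent carries the depth of its position, which is unknown outside DMPs, and PCR copies cannot be told from separate molecules.

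All 826937 positions were CpG cytosines of NCBIM37, and percent times reads at DMPs was whole within 0.0122 reads. Gene spans, starts and exons were taken from GENCODE vM1. Reads at DMPs with more than 4 reads in both libraries were compared by two-sided Fisher's exact test, adjusted by Benjamini-Hochberg over all positions with untested ones at a p of 1, threshold 0.05. Intervals at single positions are exact (Clopper-Pearson, 95 %). Means weigh each position equally. Segments, the stretches described within genes and the means without the segment of largest change were defined after the data had been seen. The members and the gene lists were chosen with earlier results of these data known. Named were the 5 members with every DMP, Nr3c1, Nr3c2 and Pgr, from each list at most 6 genes in order of DMPs that passed (of 5 nuclear receptors tied at 1 none was named), and the 3 genes most like a member whose promoter mean differed by over 20 points. Of the listed names, Tfap2a, Tfap2c and Spi1 had no entry under that symbol in the annotation used. On simulated reads, 165 of the 200 positions given a change were recovered (with 20 or more reads, 100 of 100), and 0 of 5000 without a change. Alternatives concerned the coverage minimum, the thresholds, merged strands, bins, medians, windows and the adjustment. Tests used SciPy 1.17.1, tables pandas 2.3.3 and NumPy 2.4.6, sequences pysam 0.24.0 and plots matplotlib 3.10.9, under Python 3.11.15. Classification columns of the deposited tables were not used. Some results of related genes and of 1 list are not reported here.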

Additional observations from a re-analysis of the deposited data

How the results depend on the processing

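Of 100 alternative values, 69 lay within 5 points, or for counts within 1.5 times, of the reported value, 27 moved and 4 reversed, and the cause was not tested. With at least 10 reads in both libraries, 8 hypomethylated DMPs remained of 22, and 8 passed the test. Limits of 10 and 90 % gave 13 hypomethylated and 0 hypermethylated DMPs, and a minimum of 4 reads gave 2 hypermethylated ones. At 50 points, 62 positions were lower and 12 higher, and at 10 points 102 were higher. With each 100 bp bin weighted once, the difference was -9.09 points for Esr1, -5.21 for its body and -8.16 for the Esrrg body, and reversed to 0.47 for Esr2 and 3.00 for its body. With medians it was -29.9 for Esr1, -5.15 for its body, -49.2 for its promoters, -20.6 for Esr2, 9.45 (reversed) for its body, -4.22 for the Esrra body, 15.1 for Esrrb, 19.7 for its body, -8.2 for the Esrrg body and 14.8 for its promoters. Promoters of 1000 bp on either side gave -36.5 for Esr1 and -17.3 for Esr2, merged strands -33.1 for the Esr1 promoters, and the first start alone 0.42 for Esrrb. With promoter windows included, the Esrrg body differed by -13.3 points. The median of the Esrra body has the opposite sign to its mean of 1.86 points but is counted as moved. Esrra differed by -2.51 points, against 1.05 with the gene body alone, a change of sign counted as within 5 points. Without the segment of largest change, an alternative chosen after seeing the data, Esrrg differed by -3.28 points, its body by -6.96 and the Esr2 body by 0.37, a reversal. No paired analysis was possible because each genotype has 1 library, and no library could be left out. Depth is known only at DMPs, so no counting error can be given elsewhere.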
